A study of Dugesia japonica with 4 samples.

Results

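The features described here are the genes of DNA replication, DNA repair and the cell cycle in heads of the freshwater planarian Dugesia japonica. They were chosen by protein name. A feature was a member if its name held cyclin, cell division or mitotic, a word for the copying machinery (minichromosome, MCM, PCNA, proliferating cell, DNA replication, DNA polymerase, DNA ligase, replication factor, replication protein A, topoisomerase, ribonucleoside-diphosphate reductase), a word for repair (DNA repair, mismatch repair, RAD5), or histone H, cohesin or condensin. The rule found 80 members among 15850 assembled transcript features, of which 7971 carried a protein name. The members shared 49 distinct names and lay on 62 contigs. On 14 contigs, 32 members stood side by side under 1 name, up to 5 on a single contig, so some may be pieces of 1 gene. For 70 members the name came from another flatworm or other animal, for 10 from a planarian, and only PCNA (TCONS_00002870) was named after a Dugesia japonica protein.

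Expression was measured by RNA sequencing of amputated heads. The BaCl2 group held 2 libraries from worms kept in 1 mM BaCl2 for 35 days, by which time heads insensitive to barium had grown back. The control group held 2 libraries from heads of wild-type worms, for which the labels give no exposure and no regrowth, so the effect of barium and that of growing a new head cannot be told apart. Each library was a biological replicate that pooled 25 worms. Strain, age and feeding of the 4 pools are not given in the sources used here.

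Planarians replace all their tissues from neoblasts, dividing stem cells of the body, and differentiated planarian cells do not divide. A dividing cell first loads the MCM helicase onto origins, then opens and copies DNA with polymerases that PCNA holds to the template, and packs the copies with newly made histones. Cyclins and their kinases then drive the cell through mitosis. Transcripts of this machinery are therefore used in planarians to follow the stem cells. In bulk RNA, fewer cells of a type and less RNA per cell cannot be told apart.

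Recovered depth was 3395482 and 6875650 fragments in the BaCl2 libraries and 5901128 and 8304631 fragments in the control libraries. Values are FPKM, fragment numbers corrected for feature length and library depth. A feature was tested if it had a mean of at least 1 FPKM and at least 100 fragments over the 4 libraries, which 7982 features passed. Log2 folds are BaCl2 over control on the log2(FPKM + 1) scale, which understates the folds of low features. The test was a two-sided limma fit with Benjamini-Hochberg adjustment over all 7982 features and a threshold of 0.05. Of the members, 47 were tested and 33 fell under 100 fragments.

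Most tested replication, repair and cell cycle features had lower values in BaCl2 heads than in control heads, and only 1 of them passed the test. The limma fit called 1 of the 47 lower and 0 higher, against a background of 1.42% of all features tested in either direction, 1.22% lower and 0.2% higher, so this count is near the background. At an unadjusted p under 0.05, 15 of the 47 were lower (31.9%) and 3 were higher, where 11.9% of all features tested were lower and 6.98% higher. Both BaCl2 libraries lay below both control libraries in 30 members (63.8%) and above them in 6, and the groups overlapped in 11. Among all features tested the first share was 36.3% and the second 19%. The log2 fold was below 0 in 37 members (78.7%) and in 60.9% of all features tested. With library totals (voom) it was below 0 in 33 members (70.2%) and in 47.5% of all features tested. With the deposited scaling its median was -0.42 over the tested members and -0.15 over all features tested. Changing the scaling raised the log2 folds by a median of 0.088 with median-ratio factors (limma) and of 0.19 with library totals (both fits voom). The members' median lay 0.28 below that of all features with the deposited scaling, 0.31 below it with median-ratio factors and 0.45 below it with library totals (voom). The last gap also holds the change from limma on log2(FPKM + 1) to voom on fragments.

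The names gathered by the rule do not all belong to dividing cells, and the members were split on this by hand with their results known. In other animals 17 members have their best known role elsewhere, among them a CDK5 activator, which acts in neurons, cyclin K and cyclin H, which act in transcription, and cyclin-Y. The 11 of these that were tested had a median log2 fold of -0.061, with 6 below 0 (5 with median-ratio factors and with library totals). Over the other 36 tested members the median was -0.60 and 31 were below 0 (30 with median-ratio factors and 28 with library totals). The narrower exclusion that was planned took out only an untested mitochondrial DNA polymerase and left the median at -0.42. Of the 36, which were set apart with results known, 26 (72.2%) had both BaCl2 libraries below both control libraries and 3 had both above. Among all features tested, 36.3% lay below and 19% above.

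**Figure D1:**
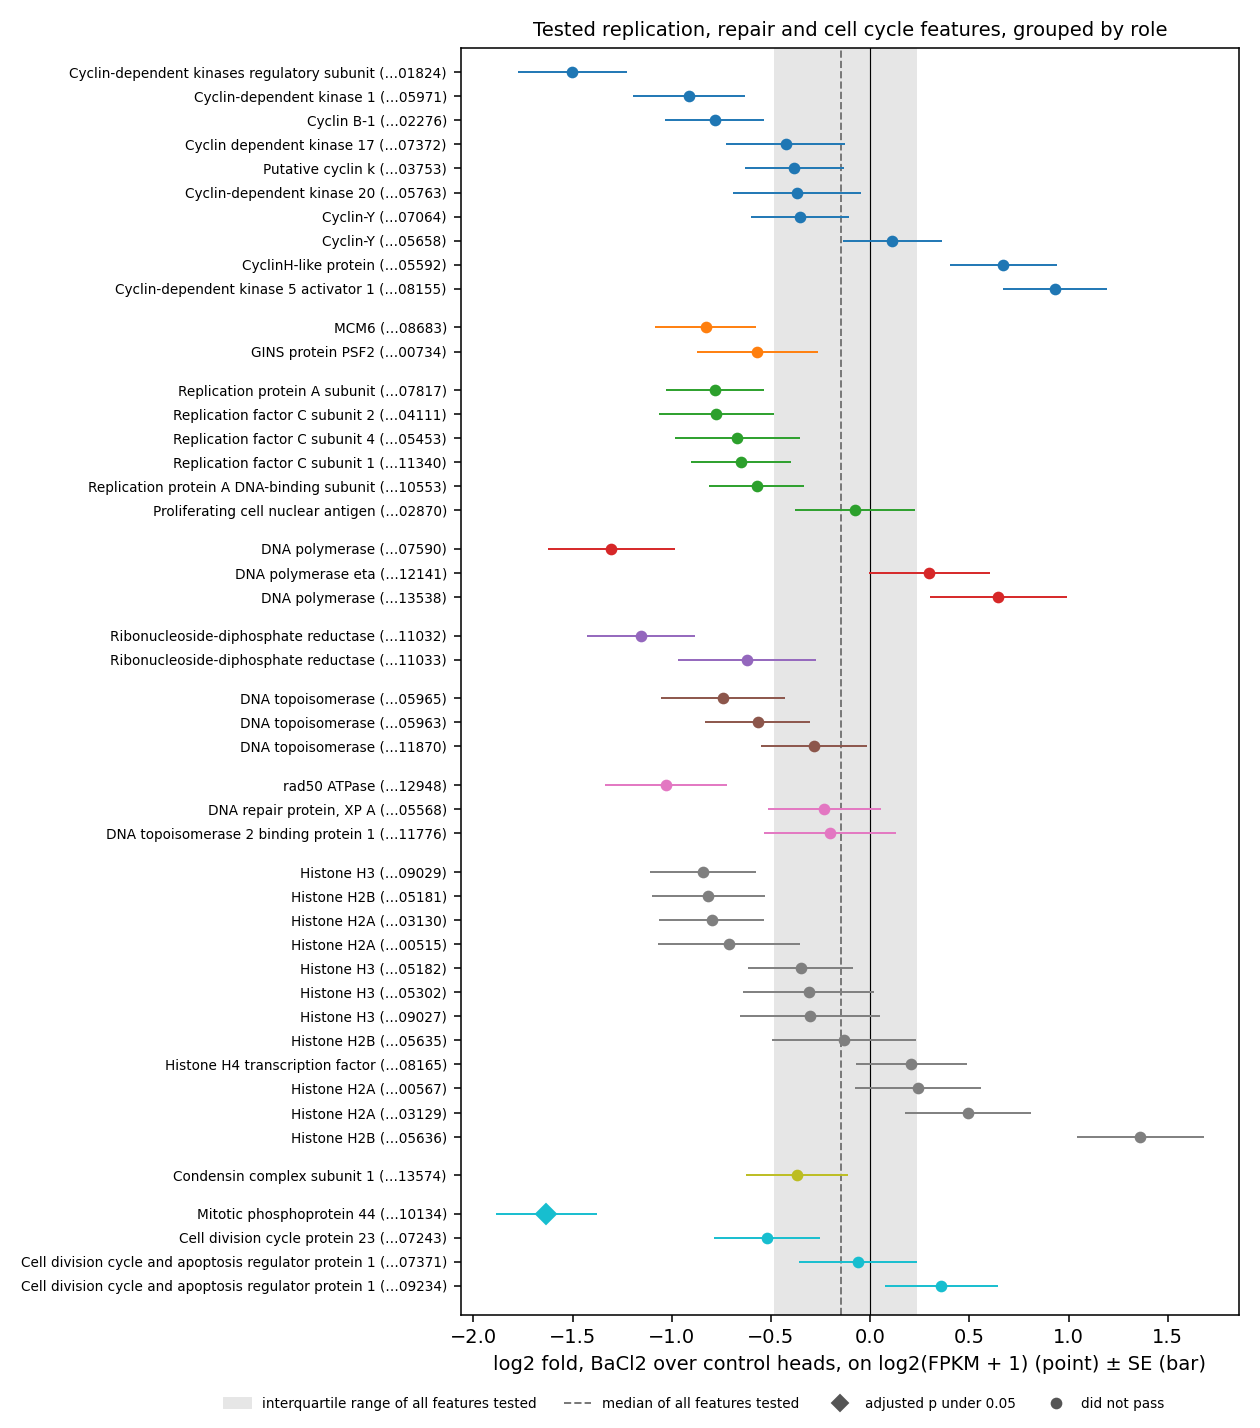
Log2 fold of the tested members, except 1 repair feature that is not shown (x axis, BaCl2 over control heads on log2(FPKM + 1); point with SE bar), grouped by role from the top, with the last digits of the feature in brackets. The grey band spans the interquartile range of all features tested and the dashed line is their median; the 1 diamond, Mitotic phosphoprotein 44, passed the adjusted threshold, and most of the points lie below 0.

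The one member that passed the test was Mitotic phosphoprotein 44 (TCONS_00010134). It had 10.6 and 8.60 FPKM in BaCl2 heads, against 32.3 and 31.1 FPKM in control heads. The groups did not overlap, and the means were 9.59 ± 1.39 FPKM in BaCl2 heads and 31.7 ± 0.812 FPKM in control heads (SD, n = 2 each). The log2 fold was -1.63 (SE 0.25, limma adjusted p = 0.0434), on 132 and 181 fragments in BaCl2 heads and 525 and 779 in control heads. Without control replicate 1 the feature missed the threshold (limma adjusted p = 0.0744), as it did with a pseudocount of 0.1 (0.0755), with median-ratio factors (0.0804) and without the fragment minimum (0.289). In contrast, voom on the recovered fragments called it on both scalings (adjusted p = 0.00886 deposited, 0.0321 library totals). In vertebrates this name is used for a nucleoporin, a protein of the nuclear pore that is phosphorylated in mitosis, so it was counted among the 17 whose role lies elsewhere.

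Cyclins and their kinases had 10 tested features of 17, and none passed. Of the 10, 7 were below 0 (70.0%, against 60.9% of all features tested), with a median log2 fold of -0.38. The cyclin-dependent kinases regulatory subunit (TCONS_00001824), the small CKS protein that binds cyclin-CDK complexes, had 52.7 and 45.2 FPKM in BaCl2 heads, against 144.6 and 135.4 FPKM in control heads. Its log2 fold of -1.50 (SE 0.27) missed the threshold (limma adjusted p = 0.0685). It passed without BaCl2 replicate 1 (limma adjusted p = 0.0232) and without BaCl2 replicate 2 (limma adjusted p = 0.0272). In all it passed in 5 of the 12 other fits, among them voom with the deposited scaling (adjusted p = 0.0162) but not voom with library totals (adjusted p = 0.051). Both BaCl2 values of CKS were below both control values.

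Cyclin B-1 (TCONS_00002276), the mitotic cyclin, had 14.0 and 13.2 FPKM in BaCl2 heads and 26.0 and 22.3 FPKM in control heads (log2 fold -0.78, limma adjusted p = 0.186). Its partner CDK1 (TCONS_00005971), the kinase of mitotic entry, was low everywhere, at 2.07 and 1.36 FPKM in BaCl2 heads and 3.79 and 4.35 FPKM in control heads (log2 fold -0.91, limma adjusted p = 0.177). Neither pair of groups overlapped and neither feature passed. A CyclinA-like feature of 61 nt (TCONS_00014792), named here after its values were seen, had 0 fragments in both BaCl2 libraries and 14 and 4 in the control libraries. Set against a floor of 3 fragments over the BaCl2 group, and with the control fragments taken as exact, it was at least 4.87-fold lower in BaCl2 heads. Its control values lay far apart, at 1544 and 286.7 FPKM. The longer CyclinA-like feature on that contig (TCONS_00014791, 265 nt) overlapped between the groups, at 4.83 and 1.91 FPKM in BaCl2 heads and 1.85 and 11.2 FPKM in control heads. Together they had 6 and 4 fragments in BaCl2 heads and 17 and 32 in control heads.

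The features with higher values in this class were those of other known roles. CDK5 activator 1 (TCONS_00008155), which switches on CDK5 in neurons of other animals, had 4.18 and 4.88 FPKM in BaCl2 heads, against 1.94 and 1.84 FPKM in control heads (log2 fold 0.93, SE 0.26, limma adjusted p = 0.151). The CyclinH-like feature (TCONS_00005592), named after a partner of the kinase that activates CDKs and RNA polymerase, had 83.2 and 76.0 FPKM in BaCl2 heads and 46.7 and 52.7 FPKM in control heads (log2 fold 0.67, limma adjusted p = 0.253). Both were without overlap and neither passed. Cyclin K (TCONS_00003753) had a log2 fold of -0.38, CDK20 (TCONS_00005763) of -0.37, and cyclin-Y of -0.35 (TCONS_00007064) and 0.11 (TCONS_00005658).

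Of the helicase features 2 of 4 were tested and both were below 0, and of the features of the clamp, its loader and replication protein A 6 of 8 were tested and all 6 were below 0, PCNA only with the deposited scaling. None of the 8 passed. MCM6 (TCONS_00008683), a subunit of the replicative helicase, had 15.0 and 15.3 FPKM in BaCl2 heads, against 30.6 and 25.1 FPKM in control heads. The log2 fold was -0.83 (SE 0.26, limma adjusted p = 0.174), and it lay between -0.97 and -0.66 in all 12 other fits. PSF2 (TCONS_00000734), of the GINS complex that travels with the helicase, had 14.4 and 11.1 FPKM in BaCl2 heads and 23.6 and 15.7 FPKM in control heads (log2 fold -0.57, limma adjusted p = 0.349). Both were without overlap. CDC45 (TCONS_00008279), a further part of that helicase, was under the fragment minimum, with 3.31 and 2.38 FPKM in BaCl2 heads and 5.80 and 2.71 FPKM in control heads.

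Replication protein A coats single-stranded DNA. Its subunit TCONS_00007817 had 18.2 and 19.0 FPKM in BaCl2 heads, against 31.8 and 33.5 FPKM in control heads (log2 fold -0.78, SE 0.25, limma adjusted p = 0.185). The DNA-binding subunit (TCONS_00010553) had 10.6 and 11.1 FPKM in BaCl2 heads and 16.9 and 16.4 FPKM in control heads (log2 fold -0.57, limma adjusted p = 0.268). In both, the libraries of a group lay close together and the groups did not overlap.

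Replication factor C loads the PCNA clamp onto DNA. Subunit 1 (TCONS_00011340) had 6.02 and 5.23 FPKM in BaCl2 heads, against 10.3 and 8.56 FPKM in control heads (log2 fold -0.65, limma adjusted p = 0.24). Subunit 2 (TCONS_00004111) had a log2 fold of -0.78 and subunit 4 (TCONS_00005453) of -0.67. All 3 had both BaCl2 libraries below both control libraries, and none passed. A second, untested subunit 1 feature on the same contig (TCONS_00011341, 252 nt) lay the other way, with 9.34 and 3.33 FPKM in BaCl2 heads and 2.15 and 1.86 FPKM in control heads, on 10 and 6 fragments in BaCl2 heads and 3 and 4 in control heads.

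PCNA (TCONS_00002870) is the sliding clamp and a common marker of planarian neoblasts. It had 100.3 and 71.6 FPKM in BaCl2 heads, against 95.5 and 83.8 FPKM in control heads. The groups overlapped, with the BaCl2 libraries at the highest and the lowest value. The log2 fold was -0.077 (SE 0.30, 95% interval -0.81 to 0.65, limma adjusted p = 0.896), an interval that includes 0. The sign turned to 0.016 with median-ratio factors and to 0.12 with library totals. A second PCNA feature (TCONS_00010174), under the minimum with 85 fragments, had 3.77 and 2.32 FPKM in BaCl2 heads and 1.04 and 1.88 FPKM in control heads. Whether PCNA differs from the other fork genes was not tested.

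**Figure D2:**
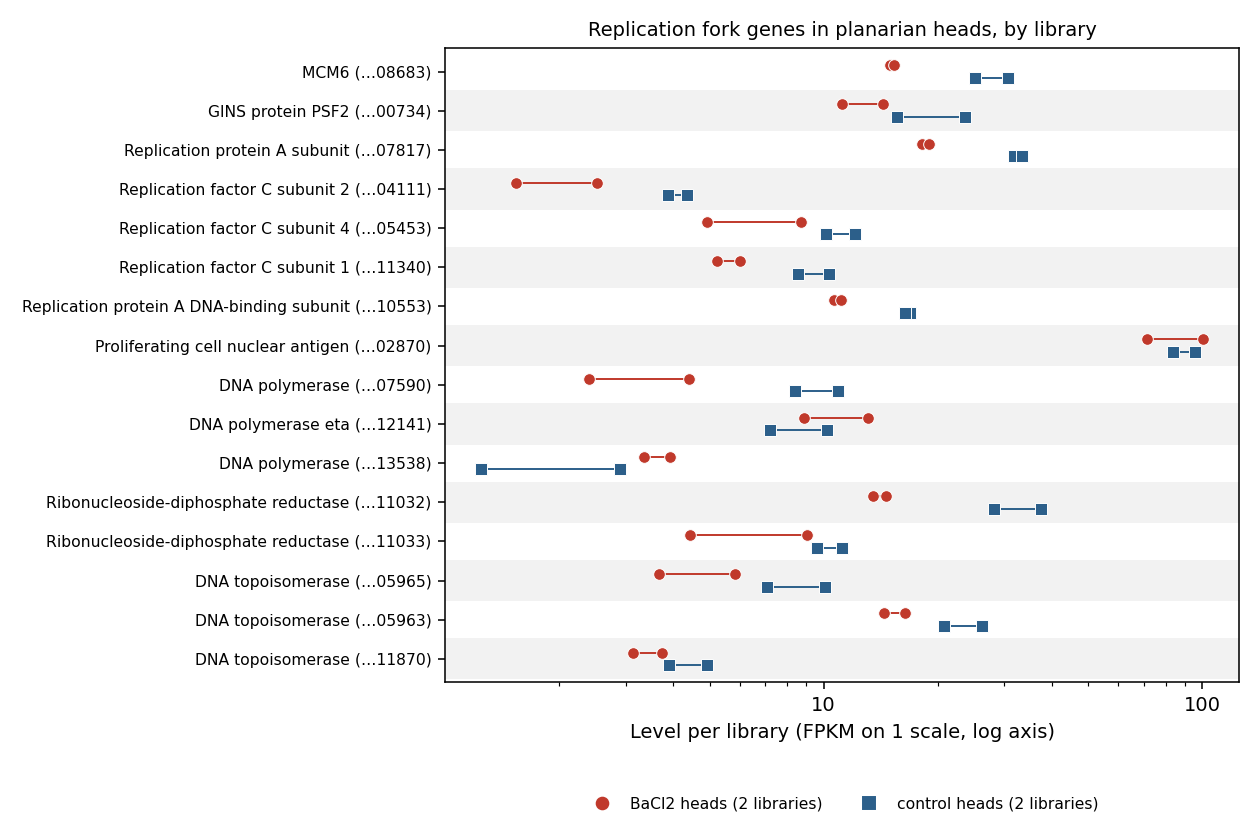
FPKM in each library (x axis, log scale) of the tested members of the replication fork, ribonucleotide reductase and topoisomerases; red circles are the BaCl2 libraries, drawn above the blue squares of the control libraries, and lines join the libraries of a group. PCNA overlaps between the groups, at 100.3 and 71.6 FPKM in BaCl2 heads and 95.5 and 83.8 FPKM in control heads, while MCM6 lies at 15.0 and 15.3 FPKM in BaCl2 heads and 30.6 and 25.1 FPKM in control heads.

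DNA polymerases gave few fragments, with 3 of 12 members tested. The polymerase feature TCONS_00007590 had 4.41 and 2.40 FPKM in BaCl2 heads, against 10.9 and 8.42 FPKM in control heads (log2 fold -1.30, SE 0.32, limma adjusted p = 0.123). It was 1 of 5 polymerase features on a contig. Their summed fragments were 57 and 46 in BaCl2 heads and 180 and 225 in control heads, and voom called this sum lower (log2 fold -1.76, SE 0.38, adjusted p = 0.033), as it did 2.69% of all features summed in this way. Another polymerase feature (TCONS_00013538) had 3.93 and 3.35 FPKM in BaCl2 heads and 1.25 and 2.90 FPKM in control heads (log2 fold 0.65, limma adjusted p = 0.349). DNA polymerase eta (TCONS_00012141), which copies past damaged bases, had overlapping groups (log2 fold 0.30, limma adjusted p = 0.606). The 3 tested polymerase features lay on both sides of 0.

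Ribonucleotide reductase makes the deoxynucleotides for DNA synthesis. The longer of its tested features (TCONS_00011032, 2307 nt) had 13.5 and 14.6 FPKM in BaCl2 heads, against 37.4 and 28.2 FPKM in control heads. The log2 fold was -1.15 (SE 0.27, limma adjusted p = 0.114; 0.0499 without BaCl2 replicate 2). Summed with its neighbour on the contig (TCONS_00011033, log2 fold -0.62), it had 510 and 912 fragments in BaCl2 heads and 1801 and 2095 in control heads, a sum that voom called lower (log2 fold -1.20, adjusted p = 0.038). The 3 tested features of type I DNA topoisomerases, which relax coiled DNA, had log2 folds of -0.74 (TCONS_00005965), -0.57 (TCONS_00005963) and -0.28 (TCONS_00011870). In each of the 3, both BaCl2 libraries lay below both control libraries, and none passed.

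All 4 tested repair features were below 0 (3 with library totals), with a median log2 fold of -0.55 and none called. RAD50 (TCONS_00012948), an ATPase that holds broken DNA ends, had 7.82 and 12.5 FPKM in BaCl2 heads, against 19.0 and 23.7 FPKM in control heads (log2 fold -1.03, SE 0.31, limma adjusted p = 0.165; 0.0428 without BaCl2 replicate 2). XPA (TCONS_00005568), which recognises bulky damage, and TopBP1 (TCONS_00011776), a checkpoint scaffold, had log2 folds of -0.23 and -0.20. The TopBP1 value turned to 0.050 with library totals. The rad25/XPB helicase feature (TCONS_00001492), of the complex that opens DNA around damage and at promoters, was chosen after its values were seen. It had 0 and 1 fragments in BaCl2 heads, against 11 and 21 in control heads, a control over BaCl2 ratio of 26.0 with an exact 95% interval from 4.34 to 1057 that covers counting error only. A feature named ERCC-3 (TCONS_00000879), another name of that helicase, had 4.50 and 4.69 FPKM in BaCl2 heads and 7.85 and 8.66 FPKM in control heads (log2 fold -0.73, limma adjusted p = 0.202).

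Core histones wrap DNA and are made in bulk while it is copied. The most abundant of the tested members were histones, and the histone features did not share 1 direction. The libraries were made with a poly(A) kit, and in animals the histone transcripts of dividing cells mostly lack a poly(A) tail. The histone class had 12 tested features of 15, with 8 below 0 (7 with library totals), a median log2 fold of -0.31, and none called. It counts in a histone H4 transcription factor (TCONS_00008165), a regulator of histone genes rather than a histone, with a log2 fold of 0.21. The most abundant H2B (TCONS_00005635) had 488.4 and 811.0 FPKM in BaCl2 heads, against 668.9 and 709.9 FPKM in control heads. Its log2 fold was -0.13 with the deposited scaling and 0.092 with library totals, and the BaCl2 libraries lay on either side of the control libraries. An H2A (TCONS_00000567) had 263.8 and 363.7 FPKM in BaCl2 heads and 275.6 and 249.4 FPKM in control heads (log2 fold 0.24, limma adjusted p = 0.694). An H3 (TCONS_00005302) had 85.7 and 136.5 FPKM in BaCl2 heads and 133.0 and 135.8 FPKM in control heads (log2 fold -0.31, limma adjusted p = 0.621). In each of these 3 the groups overlapped.

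Other histone features of the same kinds lay on opposite sides of 0. An H2B fragment (TCONS_00005181) had 110.7 and 92.4 FPKM in BaCl2 heads, against 187.7 and 170.4 FPKM in control heads (log2 fold -0.82, limma adjusted p = 0.213). An H2A (TCONS_00003130) had 52.9 and 50.6 FPKM in BaCl2 heads and 88.5 and 93.0 FPKM in control heads (log2 fold -0.80, limma adjusted p = 0.199). A minor H2B (TCONS_00005636), beside the most abundant one on its contig, had 7.94 and 8.36 FPKM in BaCl2 heads, against 1.77 and 3.57 FPKM in control heads. Its log2 fold of 1.36 (SE 0.32, limma adjusted p = 0.114) was the highest of the tested members, and without control replicate 2 it passed (limma adjusted p = 0.0124). It rested on 31 and 55 fragments in BaCl2 heads and 9 and 28 in control heads, and how the deposited values split reads between near-identical histone copies is not stated, so they are uncertain.

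**Figure D3:**
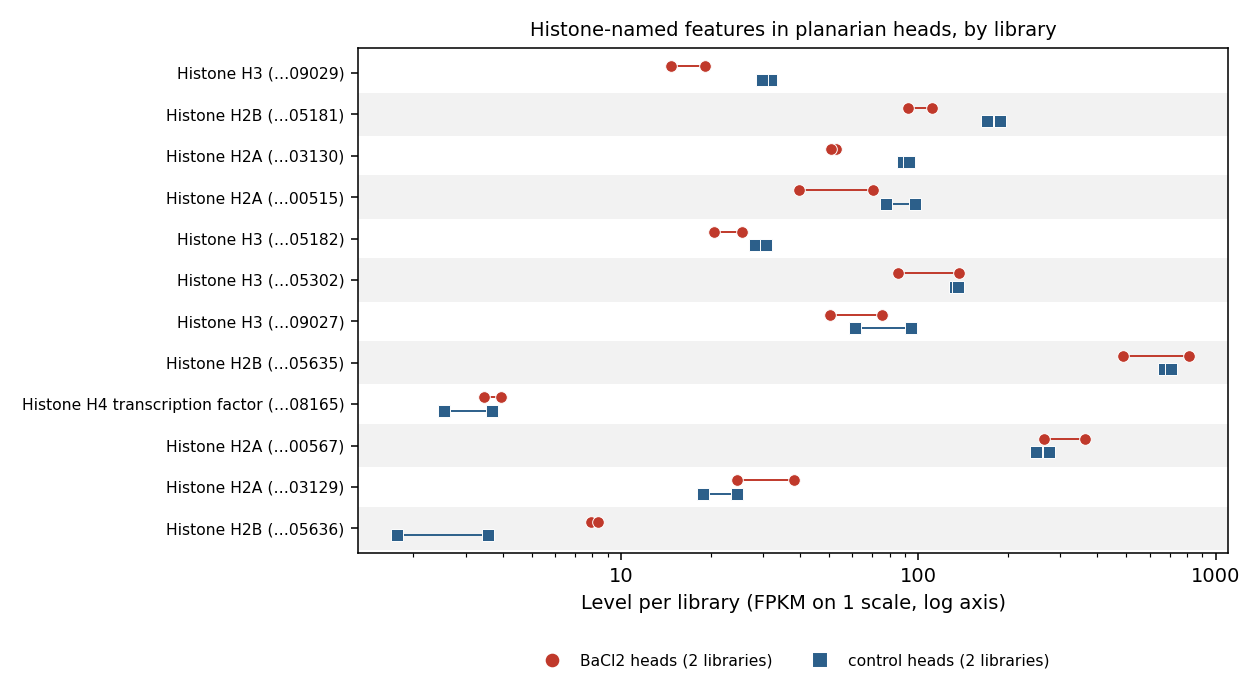
FPKM in each library (x axis, log scale) of the tested features with a histone name; red circles are the BaCl2 libraries, drawn above the blue squares of the control libraries, and lines join the libraries of a group. The abundant H2B spans 488.4 to 811.0 FPKM in BaCl2 heads around the control values of 668.9 and 709.9 FPKM, and the minor H2B lies on the other side, with 7.94 and 8.36 FPKM in BaCl2 heads and 1.77 and 3.57 FPKM in control heads.

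Among the remaining proteins of mitosis, condensin subunit 1 (TCONS_00013574), which compacts chromosomes, had 7.52 and 7.94 FPKM in BaCl2 heads, against 11.6 and 9.07 FPKM in control heads (log2 fold -0.37, limma adjusted p = 0.454). CDC23 (TCONS_00007243), of the complex that ends mitosis by destroying cyclin B, had 4.44 and 3.20 FPKM in BaCl2 heads and 6.16 and 5.56 FPKM in control heads (log2 fold -0.52, limma adjusted p = 0.339). Both were without overlap. CCAR1, a regulator of transcription and cell death, had features with log2 folds of -0.061 (TCONS_00007371; above 0 with median-ratio factors and with library totals) and 0.36 (TCONS_00009234).

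The 33 untested members were short, with a median length of 194 nt, and held 14 to 86 fragments in all. In 11 of them both BaCl2 libraries lay below both control libraries, in 4 above, and in 18 the groups overlapped. Among all untested features 17.9% lay below and 24% above. At the fragment minimum, CDC45 (86 fragments), a polymerase feature (86) and the second PCNA feature (85) stood just outside, and a topoisomerase (108), the CyclinH-like feature (118) and the minor H2B (123) just inside. A fragment in a feature of 200 nt was worth 1.95 and 1.16 FPKM in the BaCl2 libraries and 1.50 and 0.974 FPKM in the control libraries.

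The authors' deposited table gave q under 0.05 to 5 of the 80 members (6.25%), all lower in BaCl2 heads, where 2.04% of its 15850 features were lower and 1.38% higher at that q. In the authors' deposited table these were CKS (q = 0.00428, log2 -1.52), Mitotic phosphoprotein 44 (q = 0.00428, log2 -1.72), ribonucleotide reductase (q = 0.0132, log2 -1.22), RAD50 (q = 0.0383, log2 -1.08) and the CyclinA-like feature (q = 0.00428). With the deposited scaling, voom called 3 members lower (CKS, Mitotic phosphoprotein 44 and ribonucleotide reductase), against 1.92% of all features tested. With library totals it called 1 member lower, Mitotic phosphoprotein 44, against 0.651% of all features tested. With 1 library left out, limma called 0 of the 47 without control replicate 1, 2 without control replicate 2, 2 without BaCl2 replicate 1 and 4 without BaCl2 replicate 2. Those fits called more features in all, 2.82%, 4.35%, 3.03% and 12% in that order.

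**Figure D4:**
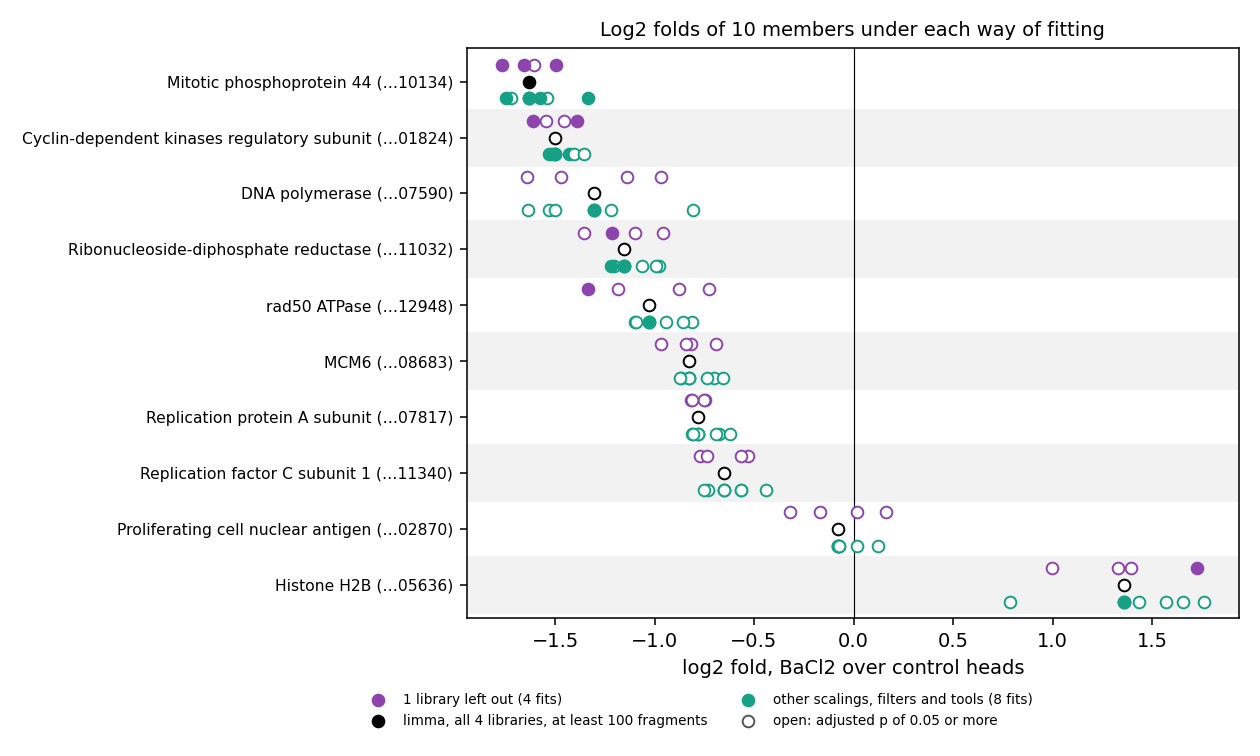
Log2 fold (x axis, BaCl2 over control heads) of 10 members under the limma fit with all 4 libraries (black), 4 fits that each leave out 1 library (purple) and 8 fits with another scaling, filter, pseudocount, block or tool (green); filled points have an adjusted p under 0.05. Mitotic phosphoprotein 44 is filled in 7 of its 12 other fits and CKS in 5, MCM6 stays between -0.97 and -0.66 without being filled, and PCNA lies on both sides of 0.

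Other genes of these pathways, gathered in 6 lists by name and without the members, gave 72 features, of which 37 were tested. Of the 37, 30 were below 0, with a median log2 fold of -0.45, where 60.9% of all features tested were below 0. The limma fit called 0 in either direction. At an unadjusted p under 0.05, 7 were lower and 0 higher, where 11.9% of all features tested were lower and 6.98% higher. Where voom with the deposited scaling called 1.92% of all features tested lower, it called 1 of these 37. Without BaCl2 replicate 1 limma called 1 of them, where it called 3.03% of all features, and without BaCl2 replicate 2 it called 3, where it called 12% of all features. In licensing and initiation, the large subunit of primase (TCONS_00009954), which lays the first primers, had 12.7 and 5.88 FPKM in BaCl2 heads, against 18.5 and 21.0 FPKM in control heads (log2 fold -1.09, limma adjusted p = 0.203; 0.0422 without BaCl2 replicate 1). Origin recognition complex subunit 3 (TCONS_00011756) had a log2 fold of -0.56. The S-phase enzymes dUTPase (TCONS_00006043), which keeps uracil out of DNA, and FEN1 (TCONS_00005411), which trims Okazaki fragments, had log2 folds of -0.64 and -0.53. All 4 tested features of these 2 lists were below 0.

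Of the checkpoint and damage response list, 10 of 12 tested features were below 0 (9 with library totals), with a median log2 fold of -0.37. FANCI (TCONS_00010461), of the pathway that repairs crosslinked DNA, had 112.7 and 114.7 FPKM in BaCl2 heads, against 339.7 and 252.9 FPKM in control heads (log2 fold -1.36, SE 0.30, limma adjusted p = 0.109; 0.0428 without BaCl2 replicate 2). In chromatin assembly 10 of 11 tested features were below 0 (8 with library totals), with a median log2 fold of -0.53. CAF-1 subunit A (TCONS_00004651), which places histones on new DNA, had 4.02 and 3.86 FPKM in BaCl2 heads and 12.8 and 8.61 FPKM in control heads (log2 fold -1.22, limma adjusted p = 0.112; 0.0348 with voom and the deposited scaling). Without BaCl2 replicate 2, a second CAF-1 feature (TCONS_00006534, subunit B; limma adjusted p = 0.0477) and retinoblastoma binding protein 6 (TCONS_00005673; limma adjusted p = 0.0356) passed. The last of these is known in mammals as a ubiquitin ligase and entered the list by its name. The kinetochore and spindle list held 1 feature, which was not tested.

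Genes known for marking neoblasts and germ cells by their RNA-binding proteins had a median log2 fold near that of all features. Of the 10 tested features in this list 6 were below 0 and 4 above. Their median of -0.055 turned to 0.038 with median-ratio factors and 0.21 with library totals. Some share 1 name, as the Tudor-1 features do, and may be pieces of 1 gene. The Nanos-related feature (TCONS_00001742) had a log2 fold of -0.51 and SmB (TCONS_00002279) of -0.49, both without overlap, and neither passed. A vasa feature (TCONS_00013162), of the RNA helicase family found in neoblasts, had 32.4 and 39.2 FPKM in BaCl2 heads, against 58.1 and 51.5 FPKM in control heads (log2 fold -0.60, limma adjusted p = 0.29). Another vasa feature of the same name (TCONS_00013163) had 93.1 and 167.4 FPKM in BaCl2 heads and 136.6 and 116.1 FPKM in control heads (log2 fold -0.012, limma adjusted p = 0.988). The 20 neoblast markers are all within this list of 23, and 1 of them, a tudor feature with 16 and 3 control fragments, was at 0 in both BaCl2 libraries. DjPiwiA (TCONS_00001234), of the piwi family that marks neoblasts, was untested on 10 and 14 fragments in BaCl2 heads and 3 and 11 in control heads, at 12.2 and 10.1 FPKM in BaCl2 heads and 2.81 and 6.70 FPKM in control heads. A Piwi-like feature (TCONS_00011632), also untested, had 2.21 and 4.16 FPKM in BaCl2 heads and 0 and 2.21 FPKM in control heads. Another of that name (TCONS_00011631) lay the other way, untested on 3 and 4 fragments in BaCl2 heads and 12 and 11 in control heads. It had 0.587 and 0.465 FPKM in BaCl2 heads and 1.80 and 1.07 FPKM in control heads. These untested features thus lay on both sides. Summed over the 8 tested markers, the level overlapped between the groups, at 200.6 and 297.4 FPKM in BaCl2 heads and 288.7 and 256.9 FPKM in control heads. Without the largest vasa feature the sums were 107.4 and 130.0 FPKM in BaCl2 heads and 152.1 and 140.8 FPKM in control heads. Over all 20 they were 336.9 and 366.4 FPKM in BaCl2 heads and 700.2 and 405.0 FPKM in control heads. Of these control sums, 328.7 and 40.1 FPKM came from the untested tudor feature at 0 in both BaCl2 libraries (TCONS_00012473), on its 16 and 3 fragments. Whether the groups overlapped therefore depended on which features were summed.

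**Figure D5:**
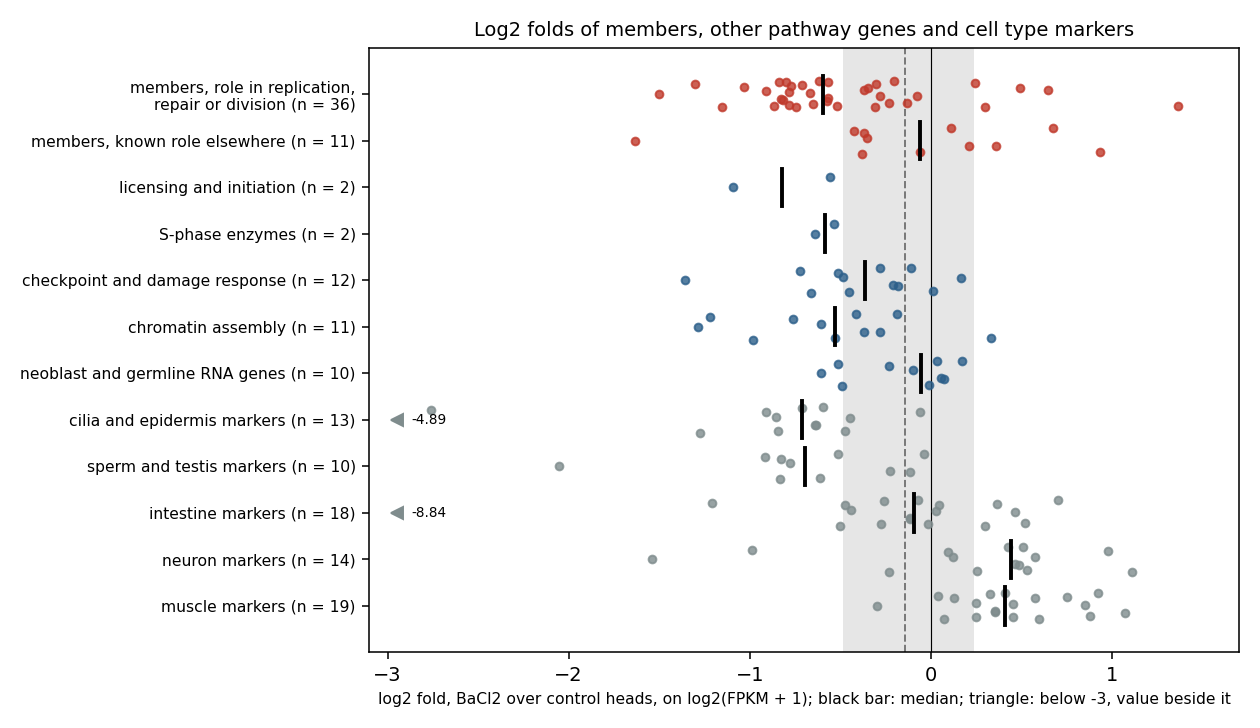
Log2 folds (x axis, BaCl2 over control heads on log2(FPKM + 1)) of tested members, of other pathway genes by list and of cell type markers; each point is a feature, a black bar the median, the grey band and dashed line the interquartile range and median of all features tested, and a triangle a feature beyond the axis with its value. The members without a role elsewhere, a split made with results known, lie at a median of -0.60 (-0.42 over all 47 tested), between cilia markers at -0.71 and neuron markers at 0.44.

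Marker lists of other cell types lay on both sides of the median of all features. Cilia and epidermis markers had 13 of 13 tested features below 0 (12 with median-ratio factors and with library totals). Of these 2 were called lower, and the median log2 fold was -0.71. Their summed levels over tested features were 224.7 and 474.0 FPKM in BaCl2 heads, against 630.2 and 731.3 FPKM in control heads. Sperm and testis markers were matched by name alone, which does not limit the list to testis genes. It holds, for example, Sperm flagellar protein 1 (TCONS_00002207, log2 fold -0.78) and Nuclear autoantigenic sperm protein (TCONS_00007039, log2 fold -0.92). Whether testis tissue was in the heads was not tested. The features of this list had 10 of 10 below 0 (9 with median-ratio factors and 8 with library totals) and a median of -0.70. Their sums were 320.3 and 284.2 FPKM in BaCl2 heads and 817.5 and 816.3 FPKM in control heads. Without their most abundant feature, named Spermatid elongation defective 1, the sums were 134.5 and 194.0 FPKM in BaCl2 heads and 247.4 and 302.6 FPKM in control heads. Neuron markers had 3 of 14 below 0, a median of 0.44 and sums of 2540 and 2093 FPKM in BaCl2 heads and 1235 and 1345 FPKM in control heads, most of it in Neuropeptide-18 (TCONS_00015351). Without that feature the neuron sums were 630.5 and 708.3 FPKM in BaCl2 heads and 502.6 and 569.5 FPKM in control heads. Muscle markers had 1 of 19 below 0, a median of 0.41 and sums of 3436 and 4456 FPKM in BaCl2 heads and 2989 and 2532 FPKM in control heads. Intestine markers had 11 of 18 below 0 (1 called lower) and a median of -0.093, which turned to 0.12 with library totals. Their sums were 1269 and 1511 FPKM in BaCl2 heads and 3172 and 2993 FPKM in control heads. Without the called feature, a ferritin (TCONS_00005540), these sums overlapped, at 1264 and 1510 FPKM in BaCl2 heads and 1394 and 1318 FPKM in control heads. Of 7 features in the protonephridia list 4 were tested, each named as a carbonic anhydrase. Of these 1 was below 0 (0 with library totals), with a median of 0.42. The cubilin features of that list were untested and lay on opposite sides. The only tested feature of 7 in the eye list, Rhodopsin orphan GPCR (TCONS_00012063), had a log2 fold of 0.69. It was matched by the letters opsin in its name, which does not place it in eyes. The part of cell composition in the members' values was not tested.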

How the data were processed

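RNA sequencing was done on heads in 2 BaCl2 and 2 control libraries; per the labels' protocols, the libraries were poly(A) TruSeq. The authors gave FPKM per assembled feature, per the file headers, in 1 table that pools replicates and 2 tables of 1 BaCl2 and 1 control library each. Each deposited table also has a log2 fold change (BaCl2 over control), the authors' q-value and p-value, lengths and contig positions. The submitters' processing notes list Cufflinks 2.2.1, Cuffdiff, TopHat2 2.0.13, TopHat and Bowtie, with no role for any of them. The genome build and the treatment of shared reads were not given in the sources used here.

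The replicate values, multiplied by 1 weight per library and summed, gave the pooled value to within 0.1% for 15202 of 15204 features (weights 0.645 and 0.358 for the BaCl2 libraries, 0.640 and 0.357 for the control libraries), which put the 4 libraries on 1 scale. Another 376 features lacked replicate values. Their 752 values, 61 of them above 0, were derived from the pooled ones. Fragments were recovered from FPKM by assuming fragment lengths of 28 to 440 nt around a mean of 200 nt (SD 80 nt). Of values under 100 fragments, 99.79% to 99.88% per library came out whole within 0.1. Fragments are not independent molecules, so intervals and floors cover counting error only.

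limma 3.58.1 (R 4.3.3; eBayes with a mean trend, 2 residual degrees of freedom, no block) was fitted on log2(FPKM + 1) over features that reached a mean of 1 FPKM and 100 fragments in all. The procedure was tested on simulated data. An exact permutation test of 2 against 2 cannot go below p = 0.333. The alternatives were pseudocounts of 0.1 and 5, other filters, median-ratio factors, a replicate block, voom on fragments with 2 scalings, and leaving out each library. A minimum of 500 fragments, sums of same-named features per contig and the wider list of members with a role elsewhere were added after seeing the data.

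The members and lists were chosen with earlier results of these data known. Named were members that passed, the 3 with the most fragments per role class and the one with the largest fold. That rule also takes in 2 untested features. Condensin subunit 2 (TCONS_00014046) had 1.70 and 0.336 FPKM in BaCl2 heads and 3.47 and 2.54 FPKM in control heads. A ribonucleotide reductase feature (TCONS_00008162) had 6.44 and 3.82 FPKM in BaCl2 heads and 8.65 and 16.1 FPKM in control heads. Others, such as cyclin B-1, CDK1 and the pathway genes, were chosen after their values were seen. A repair feature that the rule names is counted in the totals and otherwise not reported here.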

Additional observations from a re-analysis of the deposited data

How the results depend on the processing

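With 1 change at a time, the limma count of 113 features (16 higher, 97 lower) became 53 with a pseudocount of 0.1, 177 with 5, 20 without the fragment minimum, 20 with no filter, 45 with median-ratio factors, 105 with voom on library totals (53 higher, 52 lower), 195 with voom on the deposited scaling, and 225 to 957 with 1 library left out (957 without BaCl2 replicate 2). The 1 called member became 0 with a pseudocount of 0.1, without the fragment minimum, with no filter and with median-ratio factors, 2 with a pseudocount of 5, 3 with voom on the deposited scaling, 3 with at least 500 fragments, 4 with features summed per contig, and 0 to 4 with 1 library left out (0 without control replicate 1, 4 without BaCl2 replicate 2, where 12% of all features were called). The 0 called features of the pathway lists became 1 with voom on the deposited scaling and 0 to 3 with 1 library left out. The members' median log2 fold of -0.42 became -0.60 without the wider set of members with a role elsewhere, and -0.59 to -0.41 with 1 library left out.

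A replicate block gave 948 calls (11.9%), 6 of them members and 5 in the pathway lists. Deviations of libraries with the same number correlated at 0.145 over 7982 features. With 2 pairs and no label that ties a number to a culture or day, the numbers were not taken as pairs.

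Of 348 values of 29 named members under the alternatives, 320 kept direction and side of the threshold, 13 newly passed, 5 no longer passed and 10 changed sign. The sign changes were PCNA (0.016 with median-ratio factors, 0.12 with library totals, -0.32 to 0.16 with 1 library left out), CCAR1 TCONS_00007371 (0.032 with median-ratio factors, 0.16 with library totals, -0.31 to 0.19 with 1 library left out), H2B TCONS_00005635 (0.092 with library totals, -0.50 to 0.23 with 1 library left out) and H3 TCONS_00005302 (-0.64 to 0.022 with 1 library left out). The causes were not tested. With 2 libraries a group, and 33 of 80 members under 100 fragments, depth and replicate number limit what could be detected.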
